A study of Mus musculus with 2 samples.

Results

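DNA damage checkpoint and repair genes were described on the only 2 arrays of the study, 1 from a K14CreER:Rosa-VEGF-164 mouse and 1 from a wild-type mouse. The 55 genes were taken from a list grouped by repair pathway, and each probe set that the platform annotation gives to exactly 1 of them was used. Of the 55 genes, 54 had such a probe set, with 124 probe sets between them, among 18194 genes on the array in all. Xrcc2, a homologous recombination gene, had no probe set of its own and was not analysed here. Of the 54, 50 were above background on both arrays, and Brip1 only on the array labelled VEGF. The other 3, Bard1, Fancg and Ercc6, received no ratio.

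Both arrays carried total RNA of CD34-positive epithelial cells isolated by flow sorting from skin tumours raised with a carcinogen. The first genotype carries K14CreER, a Cre recombinase driven by the keratin 14 promoter of basal epidermis and fused to a ligand-dependent receptor domain, together with Rosa-VEGF-164, a VEGF transgene, while the control was wild type. Mice of both genotypes received DMBA at postnatal days 23, 25 and 27, repeated TPA over several weeks, and 2 further doses of DMBA at 7 weeks of age, so the controls carried the same carcinogen exposure. The labels give neither the tumour stage nor the age at collection, and do not say how many mice or tumours were pooled for an array.

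Cells answer DNA damage with kinases that halt the cell cycle and with repair systems specialised by lesion. ATM responds to broken DNA ends and ATR to stalled replication forks, and each activates a checkpoint kinase, CHK2 and CHK1. Breaks are rejoined by end joining or copied from a sister chromatid by homologous recombination, crosslinks are opened by the Fanconi pathway, bulky adducts are cut out by nucleotide excision repair and small base lesions by base excision repair. DMBA is a polycyclic hydrocarbon whose activated forms leave bulky adducts on DNA, the class of lesion that nucleotide excision repair removes. TPA leaves no adduct and drives proliferation of the epidermis. Many recombination, Fanconi and checkpoint genes are transcribed mainly in S phase through E2F factors, so their transcripts also follow the share of dividing cells.

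The sequences before the start sites of 4 genes are shown because these genes hold the features the members were read for, namely the highest ratio (Xpa), the highest ratio among S-phase genes (Rad51ap1), and matches to an E2F motif (Chek2 and Brca2). Each is the 250 bases before the transcript start used in the RefSeq promoter sequences, build GRCm38.p6, written 5′ to 3′. In all 4 that start lies inside the gene as annotated from its outermost transcript, so the window overlaps the gene, wholly in Brca2, mostly in Chek2 and by its last bases in Xpa and Rad51ap1. Capitals mark matches to the E2F motif, searched as TTTCCCGC, TTTCGCGC, TTTGCCGC and TTTGGCGC on both strands, and to the CCAAT box, searched as CCAAT on both strands. Neither motif contains the other.
Xpa, chr4:46196312-46196561, minus strand: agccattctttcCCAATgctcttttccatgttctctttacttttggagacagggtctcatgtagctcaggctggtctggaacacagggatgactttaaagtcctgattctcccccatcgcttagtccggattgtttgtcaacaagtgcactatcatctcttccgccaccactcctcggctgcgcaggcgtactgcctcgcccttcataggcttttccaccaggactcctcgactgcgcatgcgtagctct
Rad51ap1, chr6:126939588-126939837, minus strand: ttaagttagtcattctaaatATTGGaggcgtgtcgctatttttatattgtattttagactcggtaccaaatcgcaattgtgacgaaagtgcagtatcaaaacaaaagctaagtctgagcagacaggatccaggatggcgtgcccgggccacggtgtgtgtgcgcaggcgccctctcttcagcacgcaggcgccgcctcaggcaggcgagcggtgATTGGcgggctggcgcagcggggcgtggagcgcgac
Chek2, chr5:110839733-110839982, plus strand: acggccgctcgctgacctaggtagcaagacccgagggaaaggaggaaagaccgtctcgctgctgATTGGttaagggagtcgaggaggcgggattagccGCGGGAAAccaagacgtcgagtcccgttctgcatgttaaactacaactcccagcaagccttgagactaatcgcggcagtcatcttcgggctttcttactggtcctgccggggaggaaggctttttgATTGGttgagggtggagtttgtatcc
Brca2, chr5:150522371-150522620, plus strand: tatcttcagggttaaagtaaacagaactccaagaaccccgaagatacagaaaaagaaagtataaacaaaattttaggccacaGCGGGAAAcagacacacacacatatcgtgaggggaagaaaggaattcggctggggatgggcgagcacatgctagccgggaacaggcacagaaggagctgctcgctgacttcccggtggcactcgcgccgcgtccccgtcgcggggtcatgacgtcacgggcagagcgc
Promoter entries were matched by gene ID for 45 of the 54 genes. An E2F match lay in the 250 bases of 6 of these 45 (13.3%), against 2.16% of 27025 genes with an entry and 2.72% of the 17492 protein-coding ones. The 6 were Bard1, Brca2, Chek2, Fancg, Msh3 and Xrcc6. In Chek2 the match lay 152 to 145 bases before the start, and in Brca2 168 to 161. A CCAAT box lay in 21 of the 45 (46.7%), against 37.5% of all genes and 39.5% of protein-coding ones. These are matches of letters and not measured binding sites. The median log2 ratio was 0.11 over the 4 genes with an E2F match and a ratio, and 0.27 over the 38 without a match. For the CCAAT box it was 0.23 over 21 genes with a match and 0.25 over 21 without.

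The values are MAS5 signals, which summarise the probes of a probe set on each array on its own, and each gene is read by its probe set of highest mean log2 signal. A signal counted as above background when it exceeded the 90th percentile over 80 probe sets for receptors of smell and pheromones, genes foreign to skin, which was 11.3 on the array labelled VEGF and 19.8 on the wild-type array. On these arrays 65.2% and 58.3% of the named probe sets lay above background. With 1 array per genotype there is no spread between animals and no test between genotypes, so every difference below is a description of these 2 arrays. The only error that could be measured was how far probe sets for one gene disagreed. The SD of the log2 ratio of a single probe set was 0.50 up to a mean signal of 86.9, 0.42 up to 213, and 0.32 above that, over 4887 genes with at least 2 usable probe sets. Vegfa gave signals of 397 on the array labelled VEGF and 804 on the wild-type array, lower under the VEGF label; whether its probe sets read the transgene is not known here, so it does not check the label. The sort and epithelial markers were present on both arrays: Cd34 had 751 against 430, and Krt14 8571 against 8990. Itga6 went the other way from Cd34, with 2421 against 3952 (log2 ratio -0.71). Of the 6 markers in this list, 3 had a ratio above 0 and 3 below. Markers of dividing cells were higher on the array labelled VEGF, as given with the S-phase genes.

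Few repair and checkpoint genes differed by 2-fold between the arrays. Of the 51 genes with a ratio, 1 was at least 2-fold higher on the array labelled VEGF, against 3.87% of all 12199 genes with a ratio, and 1 was at least 2-fold lower, against 8.53% of all genes. The median log2 ratio (labelled VEGF over wild type) was 0.19 over the 51 and -0.04 over all genes. The ratio was above 0 for 33 of the 51 (64.7%), against 47.1% of all genes. At a threshold of 1.5-fold, 10 were higher (19.6%, against 11.6% of all genes) and 3 were lower (5.88%, against 20% of all genes), leaving 38 of 51 within 1.5-fold. The all-gene shares depended on the setting. Using a common floor for both arrays, 14.6% of all genes fell by 1.5-fold or more and 5.12% by 2-fold. After a filter at 4 times background these shares were 10.4% and 3.69%, and 53.8% lay above 0. Of the 40 repair and checkpoint genes passing that filter, 5% fell by 1.5-fold, 0 by 2-fold, and 65% lay above 0. The part of signal level in these contrasts was not tested. The middle of the distribution was about as wide as elsewhere: the quartiles of the log2 ratio were -0.30 and 0.51 for the 51 genes, and -0.46 and 0.30 for all genes. Beyond 2 SDs of a probe set lay 1 higher gene, Xpa, and 2 lower genes, Rad51c and Polh, while 6.43% of all genes were higher and 10.3% lower by that rule. The 10 genes at least 1.5-fold higher came from 6 of the 8 pathways, with none from mismatch repair or end joining.

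**Figure D1:**
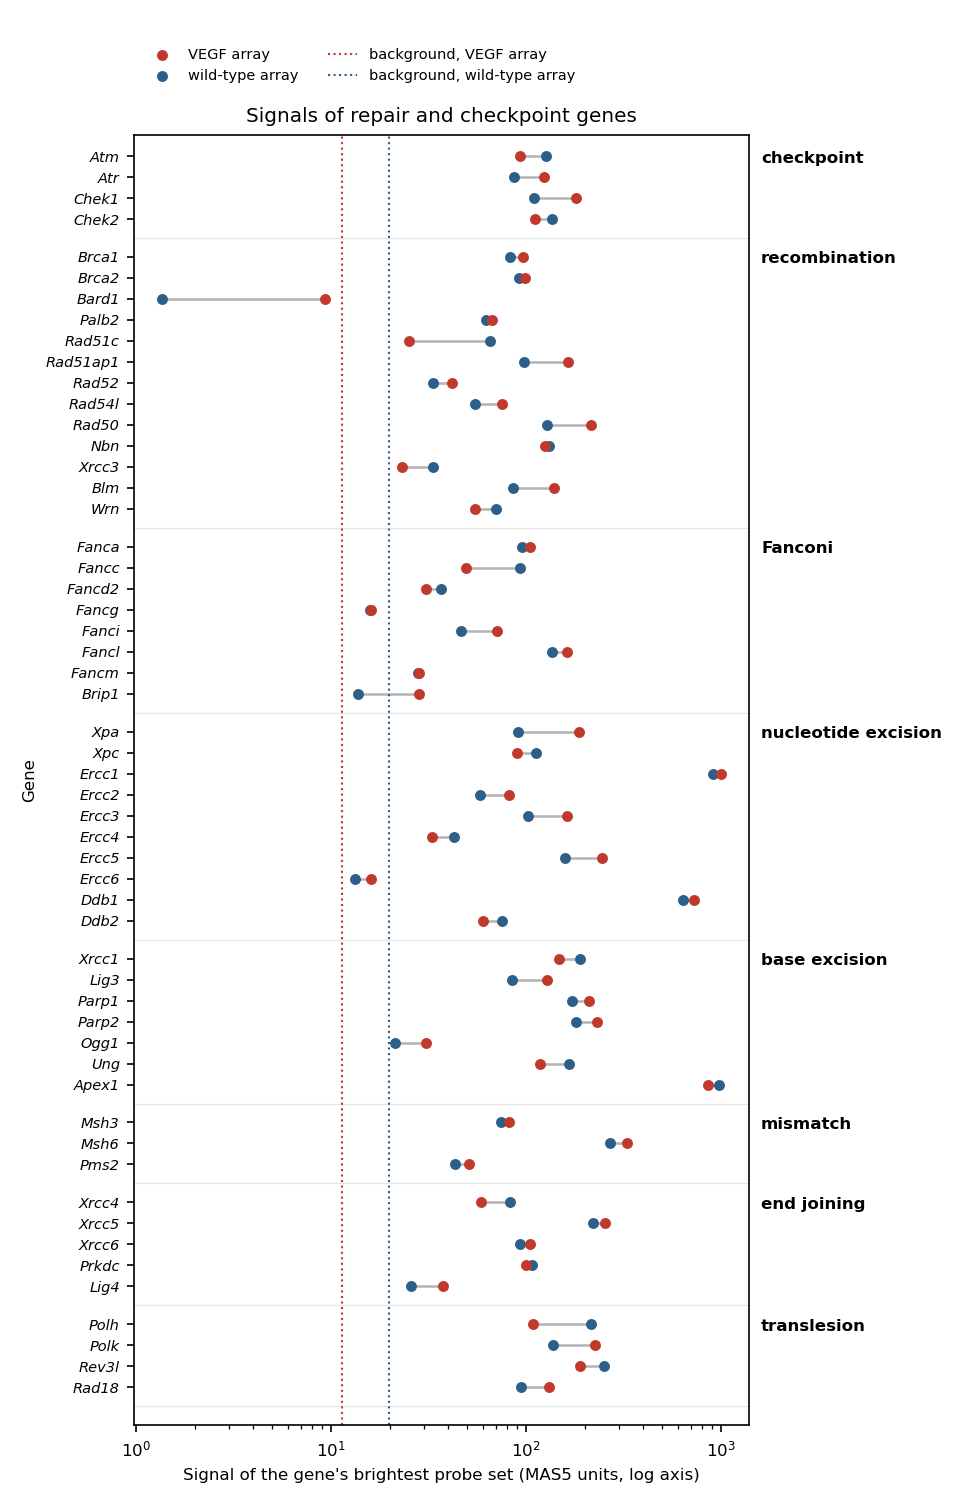
Signal of each repair and checkpoint gene on the array labelled VEGF (red) and on the wild-type array (blue), with 1 row per gene by pathway, a log axis in MAS5 units and a dotted line at each array's background (11.3 and 19.8). Most pairs lie close together; the widest gaps above background are those of Rad51c, Xpa and Polh, and positions of different genes are not comparable because each probe set has its own response.

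The damage kinases and their effectors split by arm, in small differences. Atr, the kinase of stalled forks, had a signal of 124 on the array labelled VEGF and 87.0 on the wild-type array (log2 ratio 0.51). Chek1, which encodes its effector CHK1, had 181 against 109 (0.72). Both genes of this arm were higher on the array labelled VEGF, Chek1 by over 1.5-fold. Atm, the kinase of broken ends, had 93.1 against 127 (-0.45), and Chek2, which encodes CHK2, had 111 against 136 (-0.29). Both genes of the ATM arm were thus lower by less than 1.5-fold, where the SD of a probe set at this signal is 0.42. The probe sets do not settle the order: the other Atm probe set gave 0.34 and the other Atr probe set, at 12.2 against 33.3, gave -1.45. The Chek1 probe set is one whose probes may match more than 1 transcript, but the second gave 90.8 against 55.9 (0.70), and only a dim one, at 23.4 against 29.6, went the other way (-0.34). The median of the 4 checkpoint genes was 0.11.

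Homologous recombination genes held both the lowest ratio of all 51 genes and several of the higher ones. Ratios were available for 12 of the 14 listed, of which 8 lay above 0, and the median was 0.16. Rad51c, which acts in strand exchange during homologous recombination, had 25.1 on the array labelled VEGF and 65.7 on the wild-type array, 2.62-fold lower and 2.79 times the SD of a probe set. Its second probe set was below background on both arrays, so the difference rests on 1 dim probe set, and in the setting that matches the array medians and adds an offset of 50 its log2 ratio was -0.48. Xrcc3, whose product forms a complex with that of Rad51c, was also lower, with 23.2 against 33.4 (-0.53), close to background. Both genes of this complex were therefore lower, at low signal. Of the related genes outside the list, named here after their values were seen, Rad51b had 20.1 against 30.1 (-0.58, with another probe set at 0.07) and Rad51d 33.6 against 27.3 (0.30, with others at -1.46 and 0.18).

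Rad51ap1, which encodes a DNA-binding protein that stimulates strand invasion, had the highest ratio of the recombination genes, with 164 against 97.7 (0.75). Its other 3 probe sets gave ratios or bounds between 0.12 and 0.68, all on the same side. Rad54l, a motor protein of strand invasion, had 75.5 against 55.1 (0.45), with other probe sets at 0.50 and at a bound of 0.74. Blm, the helicase lost in Bloom syndrome, had 140 against 85.6 (0.71) by its only probe set. Each of these 3 genes was higher on the array labelled VEGF, but they are only part of the 12 recombination genes with a ratio. Of the 12, 4 lay below 0, namely Rad51c, Xrcc3, Nbn and Wrn. Wrn, a helicase related to Blm and lost in Werner syndrome, had 55.1 against 70.2 (-0.35).

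The BRCA genes were close to equal. Brca1, which encodes a ubiquitin ligase of end resection, had 96.7 on the array labelled VEGF and 82.5 on the wild-type array (0.23), although a dim second probe set with 14.4 against 34.9 gave -1.28. Brca2, a tumour suppressor gene of homologous recombination, had 99.0 against 92.6 (0.10), and Palb2, which links the BRCA proteins, had 66.7 against 62.4 (0.10). Bard1, the partner of Brca1, was below background on both arrays (9.35 and 1.37). The ratios of Brca2 and Palb2 were thus 0.23 and 0.19 times the SD of a probe set. Rad50 and Nbn encode parts of the MRN complex that holds broken ends. Rad50 had 215 against 129 (0.74) and Nbn 126 against 132 (-0.07), a difference between the log2 ratios of 0.80 where the SD of such a difference is 0.59. Rad52, an annealing factor, gave 0.33 and, by its other probe set, -0.42.

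Fanconi genes went both ways, with Fancc the lowest of the listed ones. Of the 8 listed, 7 had a ratio or bound, of which 5 lay above 0, and the median was 0.15, or 0.08 without the bound of Brip1. Fancc, a subunit of the core ubiquitin ligase complex, had 49.4 on the array labelled VEGF and 93.2 on the wild-type array (-0.92), and its second probe set, with 15.8 against 37.4, gave -1.24. Both usable Fancc probe sets were lower, and with the median over probe sets the gene passed 2-fold (-1.08). The other core genes of the list with a ratio lay close to or above 0. Fanca had 105 against 94.9 (0.15), Fancl, the ligase subunit, 162 against 136 (0.25), and Fancm, the helicase that anchors the core, 28.2 against 27.9 (0.01). Among core genes outside the list, named here after their values were seen, Fancf was lower like Fancc, with 72.6 against 101 (-0.48, and -0.46 by its other probe set), while Fance had 74.0 against 72.7 (0.03) and Fancb 38.4 against 37.4 (0.04). Fanci and Fancd2 encode the pair that the core ubiquitinates. Fanci had 70.7 against 46.3 (0.61) and Fancd2 30.8 against 36.9 (-0.26), a difference of 0.87 where the SD is 0.70. Brip1, a helicase that binds BRCA1, had 28.5 against 13.7, the wild-type value being below background, at least 1.43-fold higher. Fancg had 16.1 against 15.8, below background on the wild-type array.

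Nucleotide excision repair held the only gene at least 2-fold higher. Xpa, which verifies the lesion and positions the incision enzymes, had 187 on the array labelled VEGF and 90.6 on the wild-type array, 2.07-fold and 2.50 times the SD of a probe set. Its log2 ratio lay between 1.05 and 1.09 in all 10 settings tried, but all of them read the same probe set and most could not change its ratio. Its other 2 probe sets were below background on both arrays, so no second probe set bears on it. Of the genes that act beside Xpa in opening and cutting the DNA, Ercc3, Ercc2 and Ercc5 were higher by less. Ercc1 was close to equal (0.13) and Ercc4 was lower (-0.36), as given below. Ercc3 and Ercc2, the XPB and XPD helicases of TFIIH, had 162 against 103 (0.66) and 82.3 against 58.2 (0.50). Ercc5, the XPG nuclease that cuts on the 3′ side, had 244 against 159 (0.62).

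The nuclease of the 5′ side was not higher in both subunits. Ercc1 had 998 against 912 (0.13, with another probe set at 0.47), and Ercc4, which encodes its partner XPF, had 33.2 against 42.6 (-0.36, with others at -0.38 and -0.22). The damage recognition genes gave mixed ratios. Xpc, the global sensor, had 90.2 against 112 (-0.32), and Ddb2, which finds ultraviolet lesions, had 60.3 against 75.6 (-0.33) by one probe set and 47.7 against 37.7 (0.34) by another. Ddb1, the adaptor of Ddb2, had 729 against 638 (0.19). Ercc6, the sensor of stalled transcription, cleared background on the array labelled VEGF alone (16.1 and 13.3) and has no ratio. Over the 9 excision genes with a ratio, 6 were above 0 and the median was 0.19.

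Base excision genes were within 1.5-fold except for Lig3. The ligase gene Lig3 had 129 on the array labelled VEGF and 84.7 on the wild-type array (0.61), with other probe sets at 0.19 and 0.84. Xrcc1, which encodes the scaffold that binds LIG3, had 147 against 189 (-0.36), so the partners differed by 0.96 on the log2 scale, 1.63 times the SD of the difference. Measured in SDs this was the widest gap among the 13 partner pairs of 11 complexes or arms compared, and no pair differed by more than 2 SDs. The nick sensors were slightly higher, Parp1 with 211 against 173 (0.29, others at 0.41 and 0.54) and Parp2 with 232 against 181 (0.36). Among the glycosylases, Ung, which removes uracil, had 119 against 166 (-0.48), and Ogg1, which removes oxidised guanine, had 30.7 against 21.3 (0.53) while its other probe set gave a bound of -1.40. Apex1, the endonuclease of abasic sites, had 857 against 976 (-0.19), with other probe sets at -0.07 and 0.32. The group median was 0.29 over 7 genes.

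Mismatch repair genes lay above 0 by small amounts. Msh6, whose product finds base mismatches, had 331 on the array labelled VEGF and 268 on the wild-type array (0.30). Msh3, whose product finds larger loops, had 81.4 against 74.4 (0.13), and Pms2, which encodes an endonuclease of mismatch repair, 50.9 against 43.4 (0.23). All 3 were higher by less than 1 SD of a probe set. A second usable probe set gave -0.04 for Msh3 and 0.08 for Pms2.

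End joining genes straddled 0, with a median of 0.18 over 5 genes. The Ku subunit genes were nearly equal to each other in ratio: Xrcc5 had 255 against 221 (0.21) and Xrcc6 105 against 93.2 (0.18). Prkdc, the kinase that Ku recruits, had 99.7 against 108 (-0.11). The final ligation pair diverged, with Lig4 at 37.6 against 25.8 (0.54) and its scaffold gene Xrcc4 at 58.5 against 83.1 (-0.50). The second Xrcc4 probe set gave 67.3 against 67.1, so only 1 of its 2 probe sets showed the difference.

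Translesion synthesis, by which polymerases copy past unrepaired lesions, divided between its polymerases. Polh, the polymerase that bypasses ultraviolet dimers, had 109 on the array labelled VEGF and 215 on the wild-type array, 1.98-fold lower and 2.36 times the SD of a probe set. Probes of that set may match more than 1 transcript, and the second had 51.5 against 71.3 (-0.47), the same direction at a smaller size. Polk, which bypasses bulky hydrocarbon adducts of guanine, had 226 against 138 (0.71), while a probe set near background gave 0.04. Rev3l, the catalytic subunit of polymerase zeta, had 190 against 251 (-0.40, with another at -0.48). Rad18, the ligase that ubiquitinates PCNA to start the bypass, had 132 against 94.6 (0.48), and of its other 3 probe sets 2 gave 0.45 and 0.52 and 1 gave -0.33. The 4 genes had a median of 0.04, with Polk and Rad18 higher and Polh and Rev3l lower.

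**Figure D2:**
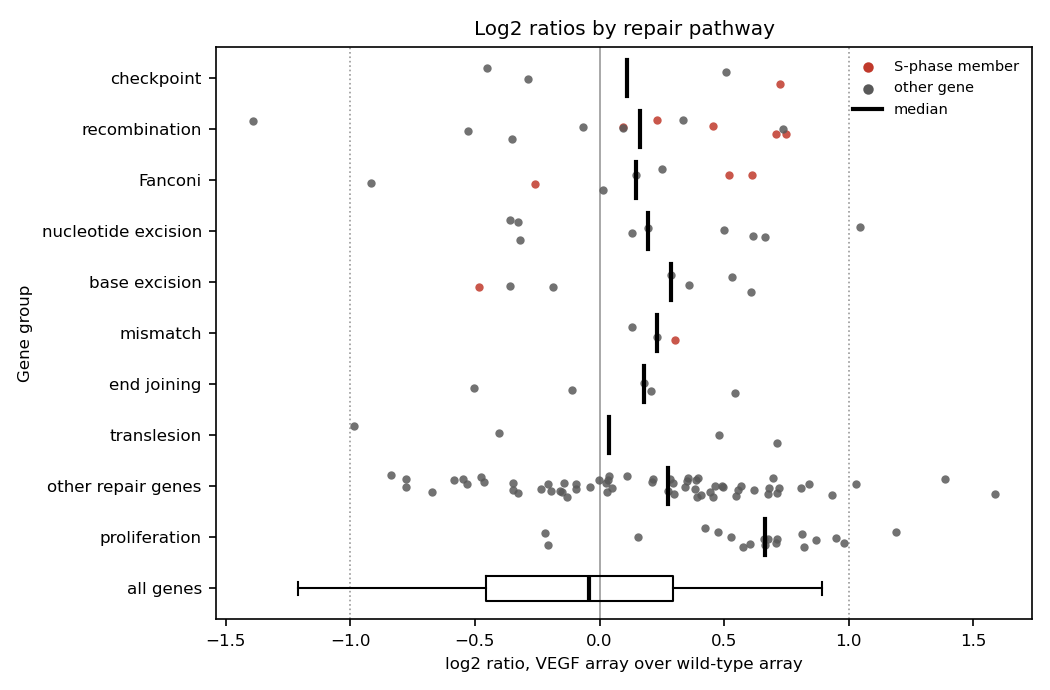
Log2 ratio (labelled VEGF over wild type) for each gene, by pathway, with 63 further repair genes, 19 proliferation genes and all genes below (box, quartiles; whiskers, 5th and 95th percentiles); black bars are medians, dotted lines 2-fold. Pathway medians lie between 0.04 and 0.29, below the 0.66 of proliferation genes, and S-phase members (red) are mostly right of 0.

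Most genes known for S-phase transcription had ratios above 0. Of 12 such genes, Brca1, Brca2, Bard1, Brip1, Rad51ap1, Rad54l, Chek1, Blm, Fancd2, Fanci, Msh6 and Ung, 11 had a ratio or bound, 9 were above 0 and the median was 0.45. Brip1 could enter only as a higher gene, since it passed background on 1 array; without it 8 of 10 were above 0 and the median was 0.38. The 40 other repair and checkpoint genes with a ratio had a median of 0.14, with 24 above 0. Of the 11, those below 0 were Ung (-0.48) and Fancd2 (-0.26). At 1.5-fold, 4 of the 11 (36.4%) were higher and 0 lower, and 6 of the 40 (15%) were higher and 3 (7.5%) lower. Over all genes 11.6% were higher and 20% lower by that rule, and 47.1% lay above 0. The S-phase genes were assigned from general knowledge, with earlier results of these data known. A list of 20 proliferation genes moved the same way, with 17 of 19 measured above 0 and a median of 0.66. In that list Cdk1, the mitotic kinase gene, had 914 against 474 (0.95), Top2a 961 against 717 (0.42), Mki67 1121 against 1007 (0.15), the highest, Rrm1, 1432 against 627 (1.19), and the lowest, Tyms, 19.9 against 23.1 (-0.22). Its summed signal was 12521 on the array labelled VEGF and 8061 on the wild-type array. In bulk RNA, more dividing cells and more transcript per cell cannot be told apart, and the part of dividing cells in the ratios of the S-phase genes was not tested.

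Repair genes outside the list were counted in the same way. Of 73 further genes listed by pathway, 67 had a probe set and 63 a ratio or bound, with a median of 0.27. Of these 63, 40 (63.5%) lay above 0, against 47.1% of all genes. At least 2-fold higher were 3 (4.76%, near the 3.87% of all genes), and at least 2-fold lower were 0, against 8.53%. At 1.5-fold, 12 were higher (19.0%, against 11.6% of all genes) and 4 lower (6.35%, against 20%). Exo1, the exonuclease of mismatch repair and end resection, had 114 against 38.1 (log2 ratio 1.59), with its other probe set at 0.60. Ube2t, the ubiquitin-conjugating enzyme of the Fanconi core, had 83.1 against 31.8, 2.61-fold higher, but its other probe set gave -1.27. Timeless, a fork protection gene that supports ATR signalling, had 175 against 85.8, 2.04-fold higher, with its other probe set at 0.15. The lowest were Nhej1, an end-joining factor, with 9.12 against 20.3 (bound -0.84), and the base excision glycosylase genes Neil1, with 30.5 against 52.3, and Nthl1, with 41.1 against 70.4 (both -0.78). The Nhej1 bound reflects mostly the unequal backgrounds of 11.3 and 19.8, since its wild-type signal barely passed background. With a common floor no further end joining, translesion or reversal gene lay below -0.53. At 1.5-fold, 3 of the 63 (4.76%) were then lower, against 14.6% of all genes. By group the medians were 0.35 for the further checkpoint genes, 0.28 for recombination and Fanconi, 0.23 for excision, and -0.05 for end joining, translesion and reversal. Exo1 and Timeless are also genes of dividing cells.

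**Figure D3:**
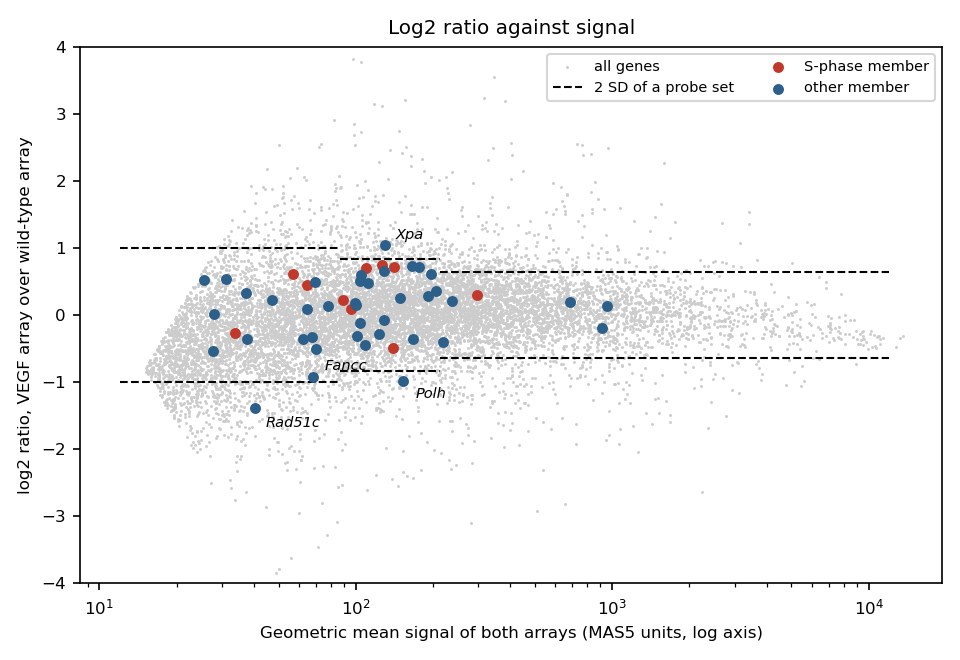
Log2 ratio (labelled VEGF over wild type) against the geometric mean signal (log axis, MAS5 units) for all genes above background on both arrays (grey) and for S-phase (red) and other (blue) repair and checkpoint genes; dashed lines mark 2 SDs of a single probe set. Xpa lies above the lines and Rad51c and Polh below them, with Fancc just inside.

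The probe sets of one gene often disagreed, which limits the reading of single genes. Of the 124 probe sets, 79 were above background on both arrays and 28 on neither. For 23 genes at least 1 further probe set gave a ratio or bound, and for 12 of these all went the same way as the one used. Fancc, Polh, Ercc4 and Rev3l were lower by each usable probe set, and Rad51ap1, Rad54l, Lig3, Polk, Parp1, Pms2, Ercc1 and Fancm higher by each. The widest disagreements, those of Atr, Ogg1 and Brca1, came from dim probe sets. Over the 10 settings, 29 of the 51 genes were above 0 and 8 below 0 in each setting that gave them a ratio, which was each of the 10 for 40 of the 51 and at least 8 for the others. These counts do not measure stability, because most settings leave the ratio of the brightest probe set unchanged or nearly so. The offset setting raises the array labelled VEGF from a median signal of 17.3 to 22.6. That alone turned small negative ratios, such as those of Chek2, Nbn and Wrn, above 0.

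**Figure D4:**
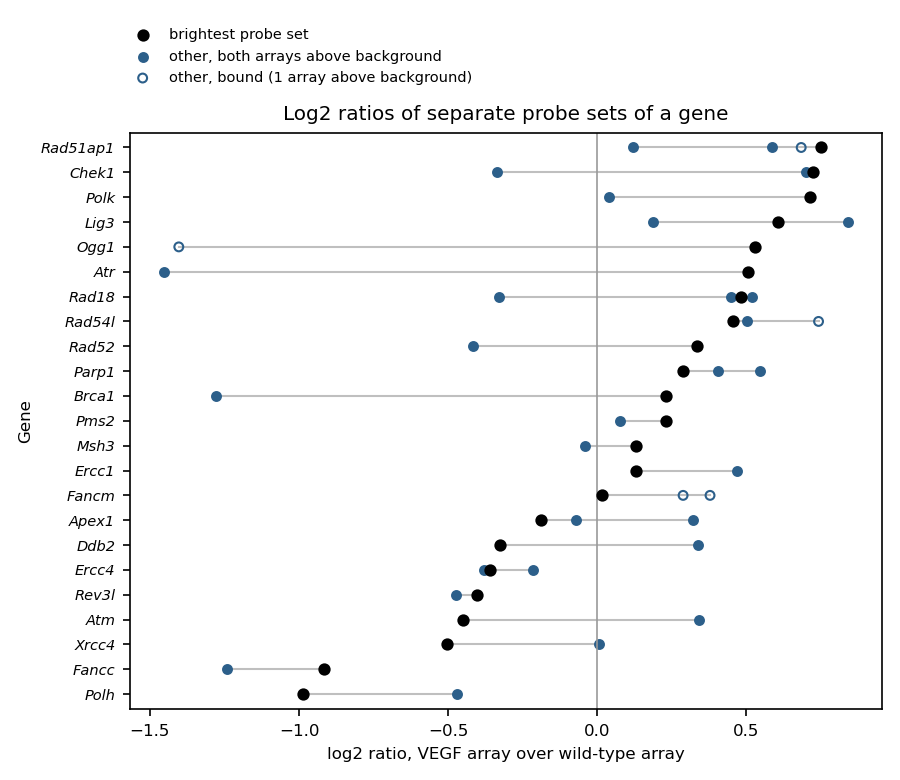
Log2 ratio (labelled VEGF over wild type) for every usable probe set of the 23 genes with more than 1, sorted by the probe set used (black); filled blue points are other probe sets above background on both arrays and open points are bounds. Rad51ap1, Rad54l and Parp1 keep to the right of 0 and Fancc, Polh and Rev3l to the left, while Atr, Ogg1 and Brca1 cross it.

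Other cells could add transcripts to a sorted sample, so marker lists were read on the same arrays. Fibroblast markers had a summed signal of 2702 on the array labelled VEGF and 1214 on the wild-type array, with 8 and 7 of 8 genes above background. Most of that sum came from Col3a1 (1235 against 490) and Col1a2 (942 against 324), and 3 of the 8 were lower, Thy1 (-1.21), Dcn (-0.34) and Pdgfrb (-0.07). Endothelial markers summed to 164 against 113, with 5 and 2 of 8 above background, and immune markers to 209 against 218, with 3 and 5 of 9. Among the immune genes Cd14 gave 0.62, while Adgre1, Tyrobp and Fcer1g gave bounds between -0.98 and -0.91. The wild-type signals of these 3, from 21.4 to 22.3, lay just above that array's background of 19.8. With a common floor for both arrays the lowest immune ratio was -0.17, so the size of these bounds reflects mostly the unequal backgrounds. Melanocyte markers summed to 188 against 391, with 5 and 4 of 6. Suprabasal keratinocyte markers summed to 8223 against 4252, with 7 of 8 above background on each array. No listed marker was at 0, and Ptprc, the gene of the pan-immune antigen CD45, had 17.3 against 14.4. The part of these cells in the ratios of repair genes was not tested.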

How the data were processed

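Total RNA of sorted tumour epithelial cells (100 ng per sample, per the labels) was hybridised to Affymetrix Mouse 430 2.0 arrays, 1 per genotype. The values are log2 signals deposited by the authors, and MAS5 is named in the submitters' processing notes; its version is not given in the sources used here, nor is a scaling target. The 2% trimmed mean of the linear signals was 100.04 on both arrays. Of 45101 probe sets, the platform annotation gave 34958 exactly 1 gene. Signals were floored at the receptor-gene background, and a ratio with only 1 array above it is a bound ("at least"). Bounds on the wrong side of 0 were dropped. Genes were counted at a fixed 2-fold, with no test. S-phase genes were assigned from general knowledge. Members, lists and settings were chosen with earlier results of these data known. All listed repair genes could be named; of the further repair genes those at least 2-fold apart and the 3 highest and 3 lowest, and of the proliferation list Mki67, Top2a, Cdk1, Ccnb1 (no probe set of its own) and the highest and lowest. Other settings were the array median or a common floor, an offset of 50 after matching medians, quantile normalization, centred ratios, the median over probe sets, leaving out _x_at and _s_at probe sets, a filter at 4 times background, 1.5-fold, and, added after seeing the data, leaving out bounds. The steps were tested on simulated data, with large changes set into bright genes only. That test does not bear on small ratios or dimmer signals, which most of the repair genes have. Analyses ran in Python 3.11.15 with NumPy 2.4.6 and pandas 2.3.3. The number of arrays limits the precision.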

Additional observations from a re-analysis of the deposited data

How the results depend on the processing

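The number of repair and checkpoint genes at least 2-fold higher was 1 in every setting except the 1.5-fold rule, which gave 10. The number at least 2-fold lower was 1 as reported, 0 with an offset of 50 and with the filter at 4 times background (which removes Rad51c), 2 with the median over probe sets (which adds Fancc at -1.08), and 3 with the 1.5-fold rule. The median log2 ratio and those of the pathways and the S-phase genes moved by less than 0.42, the SD of a probe set at middle signal, in every setting. That is a loose limit, because the SD is not the spread of a median and is wider than every reported pathway median. The median over probe sets turned 3 pathway medians below 0, those of checkpoint (-0.17), base excision (-0.07) and translesion genes (-0.03), and the offset setting raised that of nucleotide excision to 0.52. Leaving out bounds, a setting chosen after seeing the data, gave 32 of 50 genes above 0 and a median of 0.19. With the filter at 4 times background the median was 0.19 for repair genes and 0.04 for all genes. The offset setting gave 0.34 for repair genes and 0.11 for all genes, against -0.04 for all genes as reported. It gives a ratio to all 18194 genes and the reported setting to 12199, so the gaps between medians are not directly comparable. With that offset 7 gene ratios moved by more than the SD of a probe set, with the median over probe sets 3 (Atr to -0.47, Brca1 to -0.52 and Ogg1 to -0.44, each from above 0), and without _x_at and _s_at probe sets 4 (among them Polh, to -0.47). The causes were not tested. No paired analysis was possible because each genotype has 1 array, and no array could be left out. Genes near background, such as Rad51c, Xrcc3, Fancd2 and Ogg1, are limited by signal.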
